A study of Homo sapiens with 6 samples.

Results

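The 10 genes described here are negative feedback regulators and transcriptional outputs of the ERK pathway: the MAP kinase phosphatase genes DUSP4, DUSP5 and DUSP6, the Sprouty genes SPRY1, SPRY2 and SPRY4, the Sprouty-related genes SPRED1 and SPRED2, and the ETS transcription factor genes ETV4 and ETV5. They were chosen by gene symbol for their known role, with earlier results of these data known. Each symbol matched 1 of the 27685 genes in the count table. They were measured by RNA sequencing of polyA RNA in Caco-2, an established human colorectal cancer cell line with features of intestinal epithelium. Mock-transfected Caco-2 cells labelled pcDNA3 control, after a plasmid vector (genotype given as WT, 3 libraries), were set against derivatives of them labelled hFABP1as, read here as antisense to the fatty acid carrier gene FABP1 (genotype given as FABP1_knockdown, 3 libraries). No dose, time or further treatment is given for either group, and all 6 share the same growth medium with serum. The labels do not say how many clones or cultures stand behind each group, so a p-value here covers the spread between 3 libraries, which may be technical, and the construct and the line that carries it cannot be told apart.

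Growth factor receptors switch on RAS, which activates the RAF, MEK and ERK kinases in turn. Active ERK enters the nucleus and, among other things, relieves repression by the protein Capicua (CIC), which otherwise keeps genes such as ETV4, ETV5, DUSP6 and SPRY4 low. Several of the genes induced in this way then dampen the pathway: the dual specificity phosphatases dephosphorylate ERK, Sprouty proteins act between the receptor and RAF, and SPRED proteins bring the RAS inactivator neurofibromin to the membrane. In gut epithelium this pathway drives proliferation, and the RNA of its feedback genes is often read as a measure of its output.

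Library totals ran from 40351394 to 57979037 counts, and levels are given as CPM, read counts scaled to a common library size. Libraries are named by the numbers 2, 3 and 4 in the table's headers. FABP1 itself stood at 138, 102 and 121 CPM in vector control libraries. With the antisense label it stood at 134, 147 and 122 CPM, so the groups overlapped, with a log2 fold change of 0.16 (SE 0.12, edgeR adjusted p = 0.268). Since FABP1 counts were not lower, the second group is called by its label throughout, and no direction below is tied to loss of FABP1. Whether counting used strand is not recorded, so these counts may not separate sense from antisense FABP1 RNA. For the marker counts that follow, 27.7% of all tested genes were called higher and 27.3% lower. Of 10 epithelial markers 9 were tested, of which 5 were higher and 2 lower. EPCAM and CDH1 were abundant in both groups (means of 722 and 548 CPM in vector control, 684 and 629 CPM in antisense-labelled libraries), while log2 fold changes reached 3.17 for KRT20, 1.32 for CDH17 and 1.09 for CDX2 and -0.51 for KRT19. Of markers of other cells, PTPRC (leukocyte), COL1A2, DCN and THY1 (stroma) and CDH5 and KDR (endothelium) had 0 counts in every library, but others changed strongly. Among 6 tested stromal genes 3 were higher and 2 lower, with LUM at 0.134 and 18.1 CPM and PDGFRA at 22.7 and 0.386 CPM in vector control and antisense-labelled libraries. Among 4 tested leukocyte genes 3 were higher, CSF1R by 3.60 on the log2 scale, and CD14 was lower (-2.38), and both tested endothelial genes were higher. Summed levels, in which such changes partly cancel, were 14270 to 17570 and 16070 to 18960 CPM for the epithelial list, 44.3 to 48.1 and 63.7 to 66.9 CPM for 7 leukocyte genes, 39.7 to 42.6 and 32.1 to 36.2 CPM for 9 stromal genes, and 0.833 to 1.42 and 2.39 to 2.67 CPM for 4 endothelial genes, in the same order of groups. The markers named here were chosen after their values were seen. LUM, CSF1R and VWF (endothelium) had 18, 37 and 8 counts over the vector control group and 2602, 452 and 60 over the other. They entered the test only through the group where they are high, so their calls support no direction. VWF passed in 4 of 6 fits that left out a library. Among the marker calls counted above, the epithelial genes CDH1 and KRT18 passed in 2 of 6 such fits and VIL1 in 1 of 6. The stromal gene VIM also passed in 1 of 6. PDGFRA, low in the other group, had 3151 and 59 counts. The part of these markers' changes in the results was not tested. In RNA of whole cultures, fewer cells of a type and less RNA per cell cannot be told apart.

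Promoter sequence from RefSeq (build GRCh38.p14) was at hand for 6 of the 10 genes; DUSP4, DUSP5, ETV4 and ETV5 had no entry. The 10 promoter entries, each 250 bases before to 50 after a start site, were searched on both strands for the CIC octamers TGAATGAA, TGAATGGA, TCAATGAA and TCAATGGA, the ETS motif CCGGAAGT, the AP-1 motifs TGAGTCA and TGACTCA, and the cyclic AMP element TGACGTCA. Only DUSP6 held CIC octamers, a pair of them, and 1 of the SPRED2 entries held an AP-1 motif. The DUSP6 stretch is shown because both copies lie close to the start site, and that of SPRY4 because it rose as well without any of these letters. Capitals mark the CIC octamer, which reads TCAATGGA on the opposite strand. Both stretches run 5′ to 3′ on the minus strand of the chromosome and end 20 bases after the start site.

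DUSP6 (chr12:89352482-89352751, minus strand): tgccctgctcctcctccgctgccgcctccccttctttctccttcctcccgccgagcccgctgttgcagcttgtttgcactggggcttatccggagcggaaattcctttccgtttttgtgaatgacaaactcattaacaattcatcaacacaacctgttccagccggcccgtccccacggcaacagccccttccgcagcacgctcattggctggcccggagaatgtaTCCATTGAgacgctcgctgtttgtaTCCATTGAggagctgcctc
SPRY4 (chr5:142324228-142324497, minus strand): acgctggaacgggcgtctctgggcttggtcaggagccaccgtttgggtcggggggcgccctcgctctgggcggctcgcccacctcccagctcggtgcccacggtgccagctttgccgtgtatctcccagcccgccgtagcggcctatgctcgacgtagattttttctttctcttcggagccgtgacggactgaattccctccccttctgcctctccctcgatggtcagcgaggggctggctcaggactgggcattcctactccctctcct

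The DUSP6 octamers lie at bases -24 to -17 and 2 to 9 from the start site. Each sits in the same 13-base run, tgtaTCCATTGAg, with 12 bases between the copies, and no other of 35116 promoters in the table held that run. The run was read from the DUSP6 promoter itself, and most runs of this length would be rare in such a set. Its absence elsewhere therefore does not mark it out. A CIC octamer was found in 3.77% of all promoters and in 2.54% of the 16507 promoters of tested genes, and at least a pair of them in 0.327% and 0.236%. The ETS, AP-1 and cyclic AMP motifs were found in 4.14%, 4.95% and 1.85% of all promoters and in 7.11%, 3.52% and 2.64% of those of tested genes. A match is a description of letters in this window and does not show that a factor binds there.

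Of the 10 genes 8 rose and none fell. DUSP4, DUSP5, DUSP6 and SPRY4 rose more than 2-fold, SPRED1 and ETV4 by nearly as much, and SPRY1 and SPRY2 by less, while SPRED2 and ETV5 did not pass. Calls are those of edgeR's quasi-likelihood test at an adjusted p under 0.05 over 14640 genes, of which 27.7% were called higher, 27.3% lower and 55.0% in either direction; 8.80% were called higher by at least 2-fold, as were 4 of these 10. The count of 0 lower was also 0 at an unadjusted p under 0.05 and by DESeq2. All 3 antisense-labelled libraries lay above all 3 vector control libraries for the 8 genes that rose, against 31.7% of all tested genes, and SPRED2 was the 1 gene with all 3 below, against 31.0%. Groups did not overlap in 9 of the 10 genes, against 62.7% of all. The median log2 fold change of the 10 genes was 0.88, beside 0.01 over all tested genes. The genes were picked with results of these data known, and the lowest count of any of them in any library was 19. The plot of levels by library shows these separations gene by gene.

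**Figure D1:**
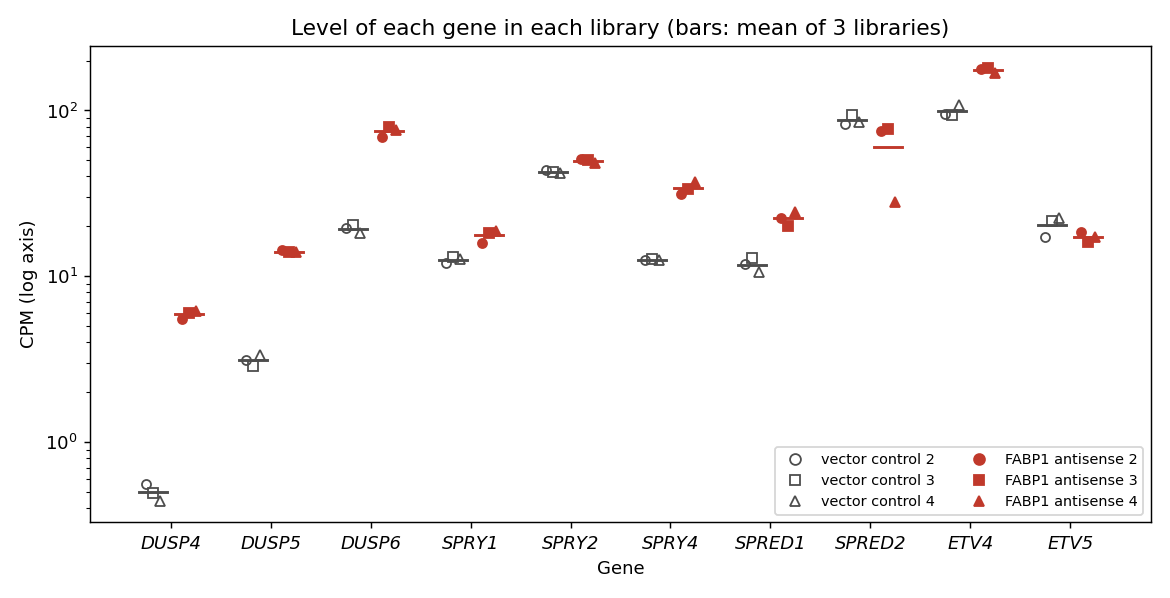
CPM (log axis) of each of the 10 genes in the 6 libraries; open grey symbols are vector control libraries 2, 3 and 4, filled red symbols the libraries labelled FABP1 antisense, and bars the mean of 3 libraries. Red lies above grey without overlap in 8 genes, the groups overlap in ETV5, and SPRED2 has a single low red point at 28.0 CPM.

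The phosphatase genes had the largest fold changes. DUSP4, which encodes an inducible nuclear phosphatase of ERK and of other MAP kinases, was nearly silent in the vector control at 0.556, 0.490 and 0.443 CPM (32, 20 and 19 counts). It stood at 5.51, 6.02 and 6.13 CPM in the antisense-labelled libraries (227, 269 and 345 counts). No library came near the other group, and the rise was 11.7-fold (95% interval 8.95 to 15.4; log2 fold change 3.55, SE 0.17; edgeR adjusted p = 6.07e-07). DUSP5, a nuclear phosphatase selective for ERK, went from 3.13, 2.87 and 3.33 CPM to 14.3, 13.98 and 13.99 CPM. The antisense-labelled libraries were almost level with each other, with an SD of 0.186 CPM around a mean of 14.1 (n = 3), and the rise was 4.53-fold (3.87 to 5.31; log2 fold change 2.18, SE 0.10; edgeR adjusted p = 4.61e-07). DUSP6, the cytoplasmic ERK-selective phosphatase with the paired octamers above, went from 19.6, 20.4 and 18.2 CPM to 69.2, 79.4 and 76.7 CPM. It rose 3.87-fold (3.39 to 4.43; log2 fold change 1.95, SE 0.09) and had the smallest adjusted p of the 10 (3.15e-07, edgeR).

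In absolute terms DUSP6 remained the main phosphatase RNA of the 3. Levels of different genes are compared per kilobase of the longest transcript that GENCODE pairs with the table's accessions. On that scale DUSP6, DUSP5 and DUSP4 were at 4.41 ± 0.252, 1.22 ± 0.0912 and 0.0896 ± 0.0103 CPM per kilobase in the vector control and at 17.1 ± 1.205, 5.51 ± 0.0726 and 1.06 ± 0.0595 in the antisense-labelled group (SD, n = 3). DUSP4 thus made up 1.45 to 1.74% of the summed phosphatase level in the vector control libraries and 4.41 to 4.61% in the others. DUSP6 made up 74.9 to 79.3% and 70.5 to 73.4%. DUSP5 has a pseudogene, DUSP5P1, with which reads could be shared; DUSP5P1 was at 1.29 ± 0.333 and 1.01 ± 0.366 CPM (SD, n = 3) and did not pass (edgeR adjusted p = 0.370).

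All 3 Sprouty genes rose. SPRY4 was at 12.5, 12.7 and 12.5 CPM in the vector control, the smallest spread of the 10 genes relative to the mean, and at 31.4, 33.6 and 36.9 CPM in the antisense-labelled libraries. That was a 2.71-fold rise (2.37 to 3.09; log2 fold change 1.44, SE 0.09; edgeR adjusted p = 2.11e-06). SPRY1 went from 12.0, 13.1 and 12.7 CPM to 15.9, 18.2 and 18.8 CPM, without overlap (1.40-fold, 1.21 to 1.62; edgeR adjusted p = 0.00194). SPRY2, the most abundant Sprouty gene, went from 43.4, 42.4 and 41.7 CPM to 50.6, 50.2 and 48.3 CPM. Its groups did not overlap, but the change was small at 1.17-fold (1.053 to 1.299; edgeR adjusted p = 0.0186), and its call was lost without antisense-labelled library 2 or 3 (edgeR adjusted p = 0.0658 and 0.0608) and in a test against a 1.2-fold change (edgeR glmTreat, adjusted p = 0.647). In that test 7 of the 10 genes were higher, against 18.1% of all tested genes.

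SPRY2 held a smaller part of the summed Sprouty level per kilobase, 54.9 to 60.0% against 67.3 to 69.3% in the vector control, and SPRY4 a larger one, 20.4 to 23.0% against 10.9 to 11.1%. SPRY1 lay between 19.6 and 22.1% in all 6 libraries. Such shares depend on the transcript length chosen. The intronic transcript SPRY4-IT1, whose reads may not be separable from those of unspliced SPRY4 RNA, had 22 counts over the vector control group and 71 over the other. It did not pass (edgeR adjusted p = 0.0571), and passed in 1 of 6 fits that left out a library.

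Of the SPRED genes 1 rose and 1 did not pass. SPRED1 went from 11.8, 12.9 and 10.5 CPM to 22.3, 20.1 and 24.6 CPM, and all antisense-labelled libraries were higher (1.903-fold, 1.61 to 2.25; log2 fold change 0.93, SE 0.11; edgeR adjusted p = 0.000123). SPRED2 was at 82.8, 93.5 and 85.1 CPM in the vector control. In the antisense-labelled libraries it was at 75.7, 76.9 and 28.0 CPM (3118, 3437 and 1576 counts), so that all 3 lay below the vector control but library 4 was far from its group. The log2 fold change of -0.54 (SE 0.31, 95% interval -1.24 to 0.17) did not pass (edgeR adjusted p = 0.176). Without library 4 it was -0.19 (SE 0.09, edgeR adjusted p = 0.0939), again not past the threshold.

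SPRED2 in library 4 was at 0.367 of the mean of libraries 2 and 3, a log2 difference of -1.44. Only 10 of 9881 genes averaging at least 3 on the log2 CPM scale differed further downward there. The 100 nearest such genes on the chromosome had differences of -0.45 to 0.83 with a median of 0.09, and the 10 nearest had -0.14 to 0.35, so the neighbours did not share the drop. In library 4, 22 of the 9881 genes were at less than 1/2 of both other libraries of the group, beside 12 to 23 in each of the other 5 libraries.

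**Figure D2:**
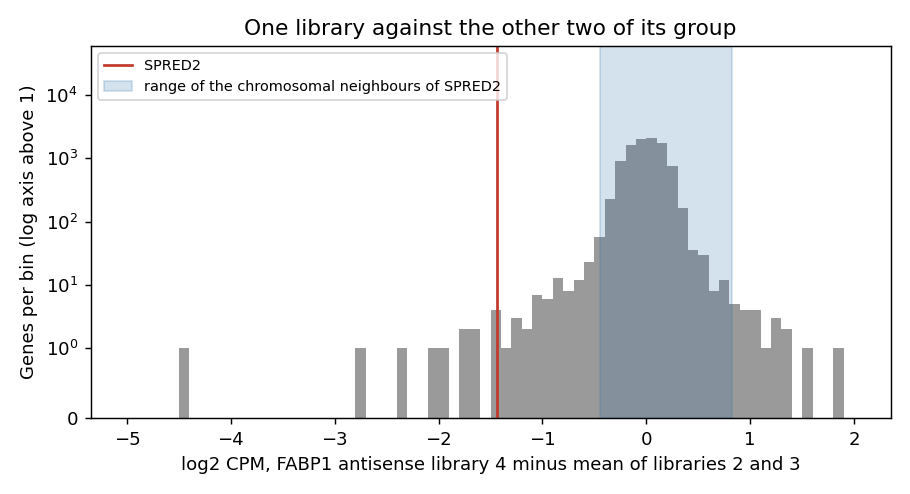
Histogram of the log2 CPM of 9881 genes in FABP1 antisense library 4 minus the mean of libraries 2 and 3 (genes per bin, log axis above 1). The red line is SPRED2 at -1.44, outside the shaded range of its 100 chromosomal neighbours, -0.45 to 0.83.

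Of the ETS genes 1 rose and 1 did not pass. ETV4, the most abundant of the 10 genes per length, went from 94.8, 93.8 and 107.9 CPM to 178, 182 and 169 CPM. It rose 1.78-fold (1.58 to 2.01; log2 fold change 0.83, SE 0.08; edgeR adjusted p = 3.34e-05), and the groups lay far apart. ETV5, its close relative in the PEA3 subfamily, was at 17.3, 21.5 and 22.6 CPM in the vector control and at 18.5, 16.1 and 17.2 CPM in the antisense-labelled libraries. The groups overlapped through vector control library 2, and the log2 fold change of -0.24 (SE 0.11, 95% interval -0.50 to 0.02) did not pass (edgeR adjusted p = 0.101). Without that library it was -0.35 and passed (edgeR adjusted p = 0.0252). The upper bound for ETV5, 0.02, lies below the lower bound for ETV4, 0.66, on the log2 scale. ETV5 made up 9.73 to 11.9% of the summed level of both genes per kilobase in the vector control libraries and 4.99 to 5.79% in the others.

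Ordered by level per kilobase, the vector control ran ETV4 (40.7), SPRED2 (21.3), SPRY2 (15.7), ETV5 (4.98), SPRY1 (4.83), DUSP6 (4.41), SPRY4 (2.54), SPRED1 (1.51), DUSP5 (1.22) and DUSP4 (0.0896 CPM per kilobase). ETV5 and SPRY1 overlapped over libraries, as did SPRY1 and DUSP6. In the antisense-labelled group the order was ETV4 (72.5), SPRY2 (18.4), DUSP6 (17.1), SPRED2 (14.7), SPRY4 (6.88), SPRY1 (6.76), DUSP5 (5.51), ETV5 (4.21), SPRED1 (2.87) and DUSP4 (1.06 CPM per kilobase). Here every neighbouring pair from SPRY2 down to SPRY1 overlapped over libraries. DUSP6 stood at rank 6 in the first order and rank 3 in the second. With the shortest matched transcript in place of the longest, DUSP6 had rank 4 in the vector control and rank 2 in the other group, so places in the middle of this order depend on the isoform, while ETV4 stayed at the top and DUSP4 at the bottom.

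**Figure D3:**
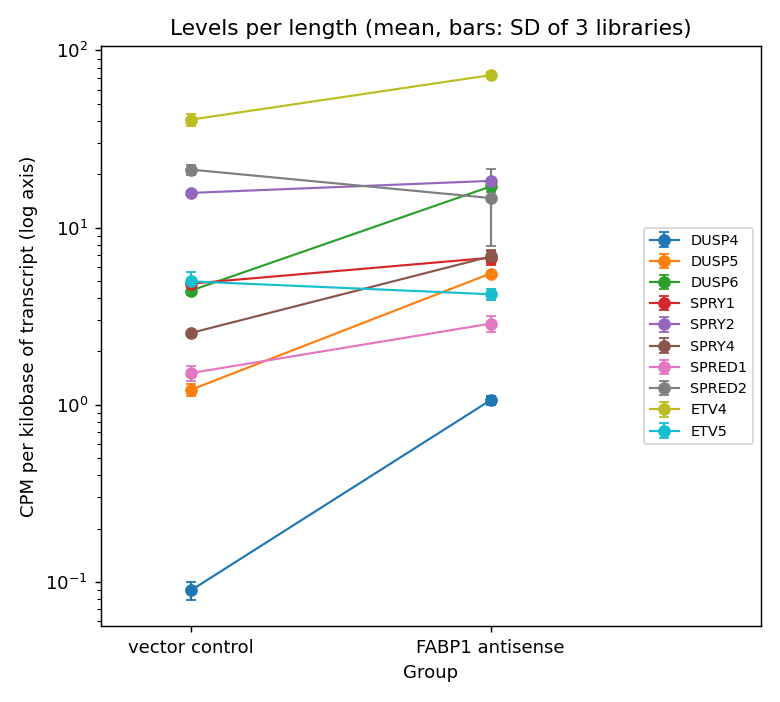
CPM per kilobase of transcript (log axis) in the vector control (left) and FABP1 antisense group (right); points are means and bars the SD of 3 libraries. The line of DUSP4 climbs from 0.0896 to 1.06 and that of DUSP6 from 4.41 to 17.1, while ETV5 and SPRED2 slope downward.

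Each gene was set beside up to 50 tested neighbours on either side that averaged at least 3 on the log2 CPM scale. DUSP4 (0.83) and DUSP5 (2.74) averaged less than that themselves, so they were set against more abundant genes. The neighbours of DUSP6 were themselves higher, with a median log2 fold change of 0.51 (quartiles 0.25 to 0.71), but DUSP6 at 1.95 exceeded 99.0% of them. Around the other genes that rose, neighbour medians were between -0.23 (ETV4) and 0.22 (SPRY4). DUSP4 exceeded 100% of its neighbours, DUSP5 99.0%, SPRY4 98.0%, SPRED1 96.4% and ETV4 95%. SPRY1 and SPRY2 exceeded 79.0% and 73.7% of theirs, smaller shares than for the other genes that rose. Of all tested genes, the share with a lower log2 fold change was 97.8% for DUSP4, 95.7% for DUSP5, 95.1% for DUSP6 and 93.3% for SPRY4. It was 89.8% for SPRED1, 88.5% for ETV4, 79.9% for SPRY1 and 66.0% for SPRY2. SPRED2 lay among genes with a median of -0.20, and over the same 6 libraries its own value of -0.54 exceeded 19.0% of theirs. The neighbours of ETV5 had a median of 0.00.

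**Figure D4:**
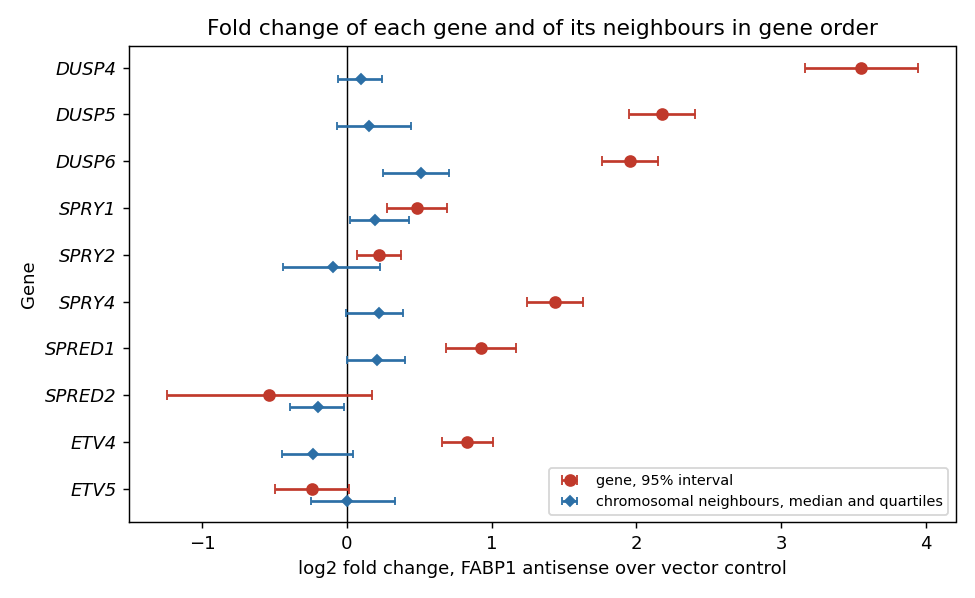
Log2 fold change (FABP1 antisense over vector control) of each gene with its 95% interval (red) and, below it, the median and quartiles of its chromosomal neighbours (blue). The intervals of SPRED2 and ETV5 cross 0, and the blue marker farthest to the right, at 0.51, belongs to DUSP6.

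Over 9 lists of other pathway genes, 28 of 93 tested genes were higher and 27 lower, with a median log2 fold change of 0.00. These shares lie near the 27.7% and 27.3% called higher and lower over all tested genes, so the pooled counts do not set the pathway apart. Under a filter of at least 1 CPM in at least 3 libraries, 23 were higher and 25 lower, and 58.2% of all genes then tested were called. The single lists below are small, their shares differ more, and they were not tested against those of all genes. Among 16 tested receptors and ligands, 7 were higher and 4 lower. With a filter of at least 1 CPM in at least 3 libraries the counts were 4 and 4 of 13, without EGF (3 and 76 counts over the vector control and the other group), TGFA (32 and 122) and BTC (14 and 68). EGF and BTC entered the test only through the group where they are high, so their calls support no direction. The receptor genes ERBB3 (0.96, SE 0.06) and EGFR (0.83, SE 0.11) rose, and the fibroblast growth factor receptor genes FGFR2 (-1.32, SE 0.09) and FGFR3 (-0.65, SE 0.08) fell, all as log2 fold changes. Of 11 adaptors and exchange factors 2 rose, IRS2 (1.21) and the phosphatase gene PTPN11 (0.62), and 2 fell, FRS3 (-0.61) and SHC1 (-0.23). FRS3 and SHC1 each passed in 3 of 6 fits that left out a library.

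Of 17 genes of the RAS, RAF, MEK and ERK tiers 4 rose and 4 fell. With a library left out, 4 to 5 rose and 2 to 4 fell. MAPK3, which encodes ERK1, rose by 0.39, the scaffold gene LAMTOR3 by 0.50 and RRAS by 0.56 on the log2 scale. Of 14 RAS GTPase activating proteins and other negative regulators, 4 rose, among them RASA1 (0.85) and CBLB (0.72), and 4 fell, among them RASAL2 (-0.76) and LZTR1 (-0.48).

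Of 7 other MAP kinase phosphatases 1 rose and 3 fell. DUSP9, also selective for ERK, fell from 31.9 ± 3.53 to 8.94 ± 0.856 CPM (SD, n = 3; log2 fold change -1.84, SE 0.11; edgeR adjusted p = 2.45e-06). DUSP8 and DUSP2 fell by 0.44 and 0.36 on the log2 scale, DUSP2 in only 3 of 6 fits that left out a library. DUSP16, which acts mainly on JNK and p38, rose by 0.40. DUSP1 (-0.06, SE 0.08), DUSP7 (0.06, SE 0.08) and DUSP10 (0.49, SE 0.28) did not pass. Of relatives outside the 10 genes, SPRY3 had 7 counts over the vector control group and 114 over the other, and it entered the test only through the group where it is high, so its call (edgeR adjusted p = 0.00456) supports no direction. SPRED3 did not pass (-0.18, SE 0.20). ETV1, the third PEA3 gene, had 6 and 15 counts and was not tested.

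Of 12 ERK-regulated factors, repressors and kinases 4 rose and 4 fell. When a library was left out, 3 to 4 rose and 1 to 5 fell. ETS1 rose from 3.49 ± 0.101 to 19.6 ± 0.994 CPM and ETS2 from 60.5 ± 2.15 to 143 ± 2.68 CPM (SD, n = 3; log2 fold changes 2.49 and 1.24), while the kinase gene RPS6KA1 (-0.55) and SRF (-0.45) fell, SRF in 4 of 6 fits that left out a library. The repressor gene CIC, named after its value was seen, fell by 0.30 on the log2 scale (SE 0.09; edgeR adjusted p = 0.0163), in 5 of 6 fits that left out a library. Of 12 other genes widely used as ERK outputs, 5 rose, 6 fell and 1 did not pass, with a median of -0.04. Over all tested genes 55.0% were called in either direction. PLAUR, the urokinase receptor gene, rose from 0.894 ± 0.2515 to 4.69 ± 0.580 CPM (SD, n = 3; log2 fold change 2.37). EPHA2 (-0.59), SPHK1 (-0.54) and LIF (-0.52) fell.

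**Figure D5:**
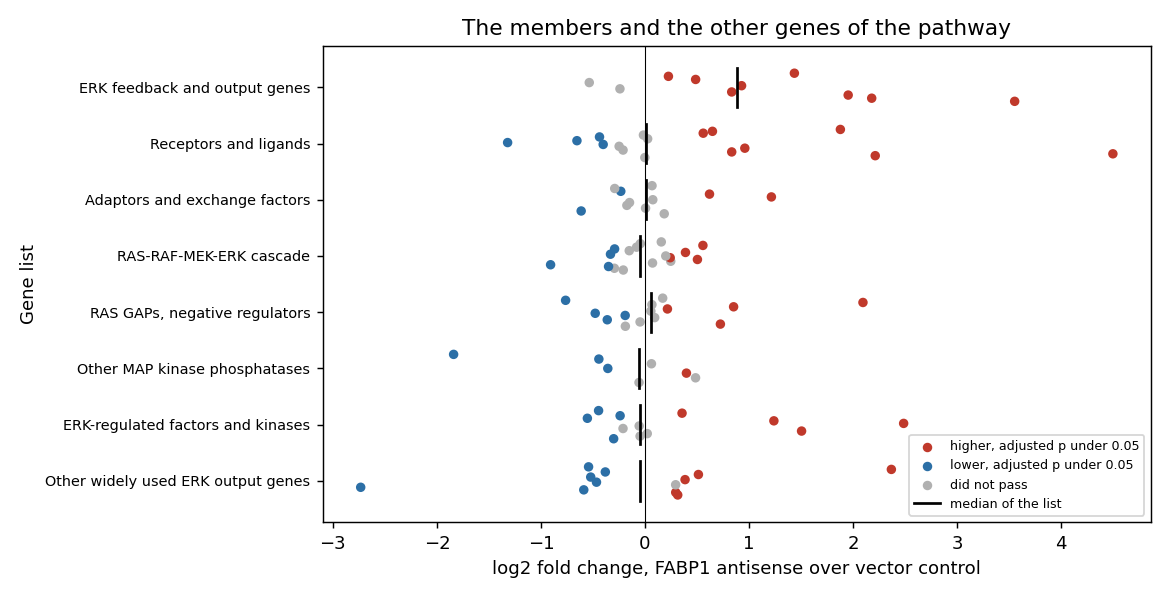
Log2 fold change (FABP1 antisense over vector control) of each tested gene in the lists; red and blue points passed edgeR's test upward and downward, grey points did not, and black bars are list medians. The 10 feedback and output genes have a median of 0.88, and the other 7 lists drawn have medians between -0.06 and 0.06; family relatives (median 1.86) and overlapping or copy transcripts (0.64), with 2 tested genes each, are not drawn; the farthest point to the right is EGF, from 3 counts over the vector control group.

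The genes whose profile over the 6 libraries was closest to that of DUSP6 were SOX4, KLF5 and SLC12A2. Likeness was the root mean square distance between log2 CPM values centred on each gene's mean, which was 0.0429, 0.0465 and 0.0827 for these 3, beside a median of 0.994 over 9880 genes. Their log2 fold changes were 1.88, 1.97 and 1.84, near the 1.95 of DUSP6. Because the libraries fall into the compared groups, this distance mainly reflects the fold change. These genes were also picked as the closest, so the small distances show a like fold change and no more.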

How the data were processed

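Gene-level read counts per library, deposited by the authors without normalization, were used for 6 libraries. Per the submitters' processing notes, bcl2fastq, Trimmomatic 0.38, HISAT2 2.1.0, Bowtie2 2.3.4.1, StringTie 1.3.4d and the build GRCh37 were involved, with no role or order named; per the labels' protocols, libraries were made with a stranded TruSeq mRNA kit. Neither labels nor headers record whether counting used strand. Headers number the libraries 2 to 4 and the labels 1 to 3, so columns were matched to groups only; 12 other per-library columns were not used.

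Counts were filtered (filterByExpr, 14640 of 27685 genes kept), scaled by TMM and tested with edgeR 4.0.16 (R 4.3.3; glmQLFit, glmQLFTest, Benjamini-Hochberg over all tested genes, threshold 0.05). The SE is the absolute log2 fold change over the square root of F. The procedure was tested on simulated data. Libraries of a group differed by more than sampling noise (chi-square over its degrees of freedom, 13.6 to 39.3). DESeq2 1.42.0 was an alternative. Gene order came from RefSeq (GRCh38.p14), which placed 99.8% of tested genes, and transcript lengths from GENCODE 29; neither gave coordinates for the counts. The naming rule took all 10 members, FABP1, tested phosphatases and family relatives, and at most 4 genes a list by size of change (mean log2 CPM of at least 1). A gene taken by this rule is not reported here. Members and lists were chosen with earlier results of these data known. Python 3.11.15 with pandas 2.3.3 and matplotlib 3.10.9 did the rest.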

Additional observations from a re-analysis of the deposited data

How the results depend on the processing

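Each of the 10 genes was refitted under 13 alternatives (other scaling, filters and tests, each library left out, a block), and no log2 fold change reversed. The calls of DUSP4, DUSP5, DUSP6, SPRY1, SPRY4, SPRED1 and ETV4 held in all 13, that of SPRY2 in 9. The members called higher numbered 7 to 8 and those called lower 0 to 1 when a library was left out. In a test against a 1.2-fold change (edgeR glmTreat), 7 members, 2657 genes in all and 21 pathway genes were higher, and 2498 genes in all and 14 pathway genes lower (main 27); 18.1% of all genes were then higher. With a replicate block on the header numbers, 7 members were higher, SPRY2 being lost (edgeR adjusted p = 0.0909), and 45.5% of all genes were called in place of 55.0%. Same-numbered libraries did not deviate together (correlations of 0.06, -0.28 and -0.48 over 9881 genes). Of 6 libraries 1 correlated best with its own number, so the block is only a number. The highest correlation was 0.49, between vector control library 3 and antisense-labelled library 4. A factor shared by differently numbered libraries was not tested. FABP1 did not pass in any of the 13. DUSP4 rests on 19 to 32 counts in each vector control library.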
